A study of Mus musculus with 12 samples.

Results

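Oxidative phosphorylation subunits encoded in the nucleus were followed in mouse germinal centre B cells sorted by zone and by affinity for antigen. The members were the genes whose symbols begin with Ndufa, Ndufb, Ndufc, Ndufs or Ndufv (complex I), Uqcr (complex III), Cox4i, Cox5, Cox6, Cox7 or Cox8 (complex IV) or Atp5 (complex V), with Sdha, Sdhb, Sdhc and Sdhd (complex II) and Cyc1 (complex III). Ndufaf genes, which encode assembly factors, were left out. This gave 83 of the 19938 genes with a probe set of their own: 36 of complex I, 4 of complex II, 9 of complex III, 17 of complex IV and 17 of complex V. The rule uses gene names, and each gene was placed in a complex by its symbol alone. Ndufa4 and Ndufa4l2 are thus counted in complex I by name, whichever complex holds the protein. Where a gene had several probe sets, the one with the highest mean over the 12 arrays was taken.

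Donor B cells expressing the SwHEL receptor, which binds hen egg lysozyme, and carrying the CD45.1 allele were given to female C57BL/6J mice, whose own cells are CD45.2. The antigen was HEL3x, a lysozyme mutant, coupled to sheep red blood cells (HEL3x-SRBC), and spleens were taken on day 10. All 4 groups share this donor, host, antigen and time, and all hold donor cells sorted as CD45.1+ CD45.2- IgG1+ CD38 low. Light zone (LZ) cells were the CXCR4 low, CD86 high fraction, dark zone (DZ) cells were the CD86 low, CXCR4 high fraction, and each was divided into high and low affinity. The groups are named DZ_high, DZ_low, LZ_high and LZ_low, with 3 one-colour arrays in each. Every donor cell starts from 1 engineered receptor, so the groups model the response of a single specificity. How cells were assigned to an affinity, and whether the arrays within a group stem from different mice, is not given in the sources used here. The p-values therefore reflect only the spread between these samples, and that spread may be technical.

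Oxidative phosphorylation takes place at the inner mitochondrial membrane. Complex I accepts electrons from NADH and complex II from succinate, both pass them to ubiquinone, complex III moves them on to cytochrome c, and complex IV gives them to oxygen. Complexes I, III and IV pump protons as they do so, and complex V, the ATP synthase, lets the protons flow back to make ATP. All but complex II also hold subunits encoded in mitochondrial DNA, so nuclear and mitochondrial genes have to supply each assembled complex. In the germinal centre, dark zone B cells divide and mutate their receptors, and light zone B cells take up antigen and are selected with T cell help. NRF1, GABPA (an ETS factor), YY1 and the ERR receptors are transcription factors known to bind near the starts of many of these genes.

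Promoter sequence is shown for 5 members on which later values turn: Atp5k and Ndufs5, which had the smallest p of all members between zones, Uqcr10, which had the smallest between affinities in the LZ, and Sdha and Sdhd, subunits of the same small complex whose upstream stretches differ in their motif matches. Each line gives the 120 bases just before the annotated RefSeq transcript start, read 5′ to 3′ on the gene's own strand, which is the minus strand for all 5. The build is GRCm38.p6, a later build than the one the array processing notes name, and the stretches lie outside the annotated gene, immediately upstream of its first exon. Capitals mark matches to a motif on either strand. The intervals are chr5:108434400-108434519 for Atp5k, chr4:123718187-123718306 for Ndufs5, chr11:4704345-4704464 for Uqcr10, chr13:74350241-74350360 for Sdha and chr9:50603850-50603969 for Sdhd.
Atp5k: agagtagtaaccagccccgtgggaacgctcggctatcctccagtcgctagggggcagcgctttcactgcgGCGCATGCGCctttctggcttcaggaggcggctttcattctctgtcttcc
Ndufs5: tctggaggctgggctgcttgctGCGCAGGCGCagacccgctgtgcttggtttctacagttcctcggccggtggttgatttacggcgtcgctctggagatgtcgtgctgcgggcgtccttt
Uqcr10: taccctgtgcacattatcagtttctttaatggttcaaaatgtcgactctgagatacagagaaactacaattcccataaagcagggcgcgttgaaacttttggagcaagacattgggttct
Sdha: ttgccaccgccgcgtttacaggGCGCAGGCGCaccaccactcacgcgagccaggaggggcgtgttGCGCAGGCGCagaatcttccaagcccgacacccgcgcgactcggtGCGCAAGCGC
Sdhd: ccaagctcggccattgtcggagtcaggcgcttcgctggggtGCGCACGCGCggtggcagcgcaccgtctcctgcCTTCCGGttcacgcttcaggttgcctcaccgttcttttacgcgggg
The 10-letter runs in capitals in Atp5k, Ndufs5, Sdha and Sdhd match the NRF1 motif, which was searched as GCGCA, any base, then GCGC. Sdha held 3 such matches and Sdhd held 1, beside 1 ETS match, while the stretch of Uqcr10 held none of the 4 motifs.

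Promoter entries, from 250 bases before to 50 after a transcript start, were matched for 67 of the 83 members and searched on both strands. The NRF1 motif was found in 16 of the 67 (23.9%) against 5.19% of all 27025 genes with an entry. The ETS motif, CCGGAAG, was in 17 (25.4%) against 9.93%, the YY1 motif, AAGATGGCG, in 7 (10.4%) against 1.64%, and the ERR motif, TCAAGGTCA, in 2 (3%) against 0.466%. At least 1 of the 4 was present in 34 members (50.7%) and in 15.5% of all genes. These shares are descriptions, with no adjustment for base composition. The median log2 difference between LZ and DZ, described below, was -0.15 in members with a match and -0.15 in those without one.

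Expression was read on the log2 scale from RMA values as deposited, in which 1 unit is a 2 times difference and which range from 1.99 to 13.74. Array medians lay between 5.57 and 5.72, and correlations between arrays between 0.951 and 0.993. Each group holds 1 array from each of 3 matched sets, marked by a shared label suffix, and the 4 arrays of set 3 stood apart on the first principal component (40.1% of the variance), scoring 12.5 to 52.9 where the other 8 scored -26.4 to -6.7. Germinal centre B cell markers matched the labelled cell type: all 7 with a probe set, including Bcl6, Fas and S1pr2, were at or above the array median on every array. Of 8 macrophage markers 4 were below the median on all arrays, Adgre1 and Csf1r among them, while Cd68 was above it on all 12 (6.76 to 8.15). Of 6 T cell markers only Cd4 was below it on all arrays, and Thy1 was above it on all 12. The LZ_low array of set 3 had the highest values of the 12 for Thy1 (8.05), Cd3g (7.60), Cd3d (7.32) and Lyz2 (8.24), a macrophage and granulocyte gene. The granulocyte genes S100a8 and S100a9 were at or above the median on 11 and 12 arrays and varied widely, S100a9 from 6.07 to 10.37, while Ly6g was below the median throughout.

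Dim genes were left out of the tests: a gene had to reach the array's median over all probe sets on 3 or more of the 12 arrays, which 11206 genes did. This kept 80 of the 83 members, and 78 of them were at or above the median on all 12 arrays. The 3 that were too dim are all complex IV isoforms of other tissues: Cox7b2, a testis form, lay between 3.21 and 3.94, Cox8b, a heart and skeletal muscle form, between 4.61 and 5.09, and Cox8c, a testis form, between 4.72 and 5.54. Among tested members, Cox4i2, an isoform best known from lung, was at or above the median on 6 arrays and Ndufa4l2, a hypoxia-responsive relative of Ndufa4, on 3. Cox7c, Ndufb1, Ndufb4, Ndufb4b and Ndufb4c, which had no probe set of their own, were not analysed here. Pseudogene copies are annotated for several members, Atp5k and Ndufs5 among them, and signal from such copies could not be separated from that of the gene.

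The comparison of zones asked whether respiratory subunits differ between cells sorted as LZ and as DZ. No member passed the test: 0 of 80 had an adjusted p below 0.05 in the limma fit over all 11206 genes (Benjamini-Hochberg), against 47 genes (0.419%) in all. Values nevertheless lay on one side, since 76 of 80 members (95%) had a lower mean in the LZ, against 51% of all tested genes. Members were read on the same arrays, and their median moved over a range of 0.43 between arrays. The 80 are thus not separate readings of a group difference, here or in the counts below. The median log2 difference, LZ minus DZ, was -0.14 over the members and 0.00 over all tested genes, which compares with a median standard error (SE) of 0.12 for a single member. At an unadjusted p below 0.05 the count was 4 of 80, all lower in the LZ, against 791 genes (7.06%) in either direction. The share of members was below the background over both directions, but not in the lower direction alone, which held 331 genes. With the matched set as a block 0 members passed by adjusted p, against 135 genes (1.2%). By unadjusted p the count was 8 of 80, again all lower in the LZ, against 1211 genes (10.8%) in either direction. That share was near the background over both directions, while the lower direction alone held 483 genes. The smallest adjusted p of any member was 0.448 (limma), and 0.251 with the block.

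The lower side was shared by all 5 complexes. The median LZ minus DZ difference was -0.17 for complex I (34 of 36 members lower), -0.14 for complex II (4 of 4), -0.19 for complex III (9 of 9), -0.13 for complex IV (13 of 14) and -0.10 for complex V (16 of 17). The size depended on the matched set: the median over members was -0.17 in set 1, -0.05 in set 2 and -0.21 in set 3. Fewer cells of one type and less RNA per cell cannot be told apart in these sorted bulk samples.

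**Figure D1:**
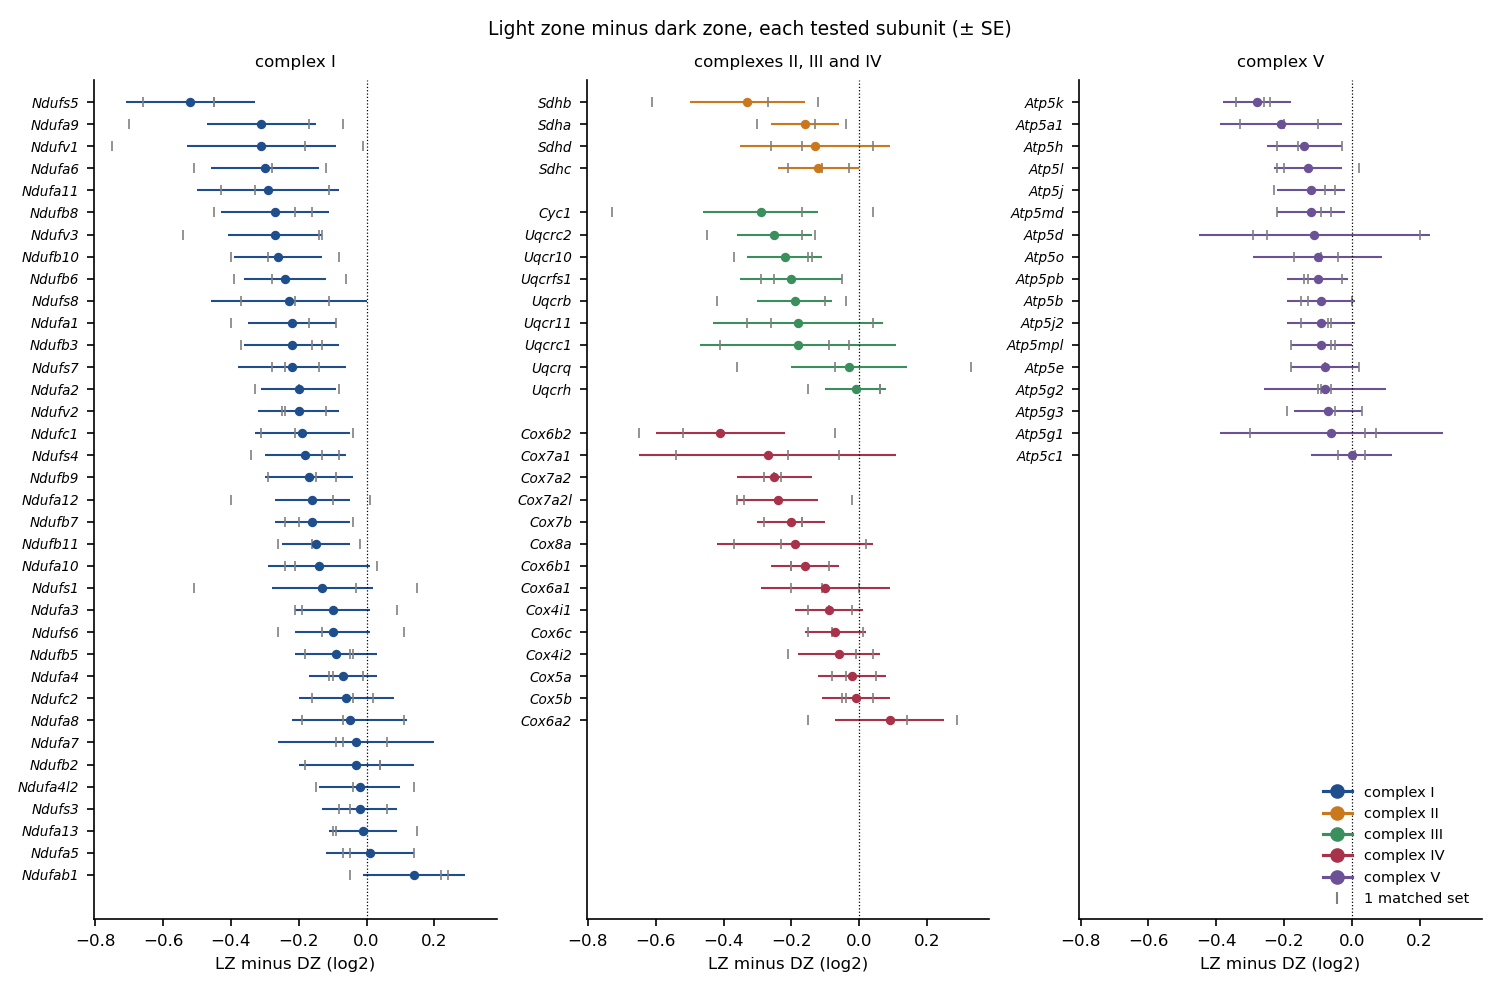
Log2 difference, light zone minus dark zone, for each of the 80 tested subunits, grouped by complex; points are the fitted difference, horizontal bars its SE, and grey ticks the difference within each of the 3 matched sets. Of the 80 points, 76 lie below 0, and the largest difference is that of Ndufs5, -0.52.

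A second view used the order of the values within matched sets, where each member has 6 pairs of LZ and DZ arrays of the same set and affinity. In 18 of 80 members (22.5%) the LZ array was the lower one in all 6 pairs, against 419 genes (3.74%). None was higher in the LZ in all 6 pairs, against 509 genes (4.54%). The 18 came from every complex: Ndufa1, Ndufa6, Ndufb10, Ndufs4, Ndufs5, Ndufs7 and Ndufv2 of complex I, Sdhb of complex II, Uqcrc2 and Uqcrfs1 of complex III, Cox6b1, Cox7a2, Cox7a2l and Cox7b of complex IV, and Atp5a1, Atp5k, Atp5md and Atp5o of complex V. Pairing removes what a set shares, and without it the groups overlapped: in 0 of 80 members did all 6 LZ values lie below all 6 DZ values, against 51 genes (0.455%).

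Atp5k, the subunit e of the ATP synthase that takes part in joining it into dimers, came nearest to the threshold. It was 11.34, 11.67 and 11.60 in DZ_high, 11.47, 11.41 and 11.61 in DZ_low, 11.26, 11.36 and 11.29 in LZ_high and 11.04, 11.25 and 11.22 in LZ_low, in the order of sets 1 to 3. Only the lowest DZ array and the highest LZ array overlapped, at 11.34 and 11.36. The difference was -0.28 ± 0.10 (SE; limma adjusted p = 0.448), a fold of 1.21.
Ndufs5, an accessory subunit of complex I, had the largest difference of all members. It was 9.39, 9.94 and 10.18 in DZ_high, 9.98, 9.30 and 10.05 in DZ_low, 9.19, 9.50 and 9.31 in LZ_high and 9.27, 8.83 and 9.60 in LZ_low. The LZ value was the lower one in every pair, but the DZ arrays themselves spread over almost a full log2 unit. The difference was -0.52 ± 0.19 (SE; limma adjusted p = 0.501), a fold of 1.44.

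In complex II, which is also an enzyme of the citric acid cycle, all 4 subunits were lower in the LZ and none passed. Sdhb, the iron-sulfur subunit, was 10.46, 10.74 and 10.94 in DZ_high, 10.78, 10.20 and 10.67 in DZ_low, 9.98, 10.52 and 10.89 in LZ_high and 10.04, 10.18 and 10.19 in LZ_low. The 4 lowest values were all on LZ arrays, and LZ_high covered most of the range of the DZ arrays. The difference was -0.33 ± 0.17 (SE; limma adjusted p = 0.801).
Sdha, the flavoprotein subunit with the active site for succinate, differed by -0.16 ± 0.10, Sdhc by -0.12 ± 0.12 and Sdhd by -0.13 ± 0.22, the last 2 being the membrane anchors. Sdha and Sdhd, whose upstream sequences are printed above, thus had differences of like size but unlike error in this fit. With the matched set as a block their SEs were closer, at 0.10 and 0.14. Sdhd varied from 6.96 to 8.33 within the LZ_high arrays.

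In complex I, the core subunits read here were lower in the LZ by -0.02 to -0.31. Ndufv1, which binds NADH, differed by -0.31 ± 0.22, Ndufv2 by -0.20 ± 0.12, Ndufs1 by -0.13 ± 0.15, Ndufs7 by -0.22 ± 0.16, Ndufs8 by -0.23 ± 0.23 and Ndufs3 by -0.02 ± 0.11 (SE; limma adjusted p from 0.907 to 0.999). For Ndufv1 the value rested on set 3, which gave -0.75 with its DZ_high array at 9.83, while set 1 gave -0.18 and set 2 gave -0.01. The only complex I members above 0 were Ndufab1, the acyl carrier protein, at 0.14 ± 0.15, and Ndufa5 at 0.01 ± 0.13.

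In complex III, Uqcrc2, a core subunit, was 10.29, 10.52 and 10.66 in DZ_high, 10.33, 10.18 and 10.59 in DZ_low, 10.25, 10.29 and 10.06 in LZ_high and 10.10, 10.08 and 10.30 in LZ_low. The LZ arrays reached no further than 10.30, a level that 4 of the 6 DZ arrays exceeded. The difference was -0.25 ± 0.11 (SE; limma adjusted p = 0.704).
Uqcrfs1, the Rieske iron-sulfur protein, differed by -0.20 ± 0.15, Cyc1, cytochrome c1, by -0.29 ± 0.17, and Uqcrc1, the other core subunit, by -0.18 ± 0.29. Cyc1 was uneven over the sets, at -0.17, 0.04 and -0.73.

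In complex IV, the isoforms that most tissues use were lower in the LZ by small amounts: Cox4i1 by -0.09 ± 0.10, Cox6a1 by -0.10 ± 0.19, Cox6b1 by -0.16 ± 0.10, Cox7b by -0.20 ± 0.10 and Cox8a by -0.19 ± 0.23. Cox7a2, the widely used form of subunit VIIa, was 11.01, 11.09 and 11.29 in DZ_high, 10.85, 10.65 and 10.89 in DZ_low, 10.71, 10.84 and 11.21 in LZ_high and 10.59, 10.45 and 10.46 in LZ_low. DZ_high held the highest values apart from 1 LZ_high array, and the 3 LZ_low values were the lowest of the 12. Between zones it differed by -0.25 ± 0.11 (SE; limma adjusted p = 0.698), and Cox7a2l, a relative known for joining complexes III and IV into supercomplexes, by -0.24 ± 0.12.
For the isoforms known from other tissues no zone difference passed the test. Cox6a2, a heart and muscle form, was the one complex IV member above 0, at 0.09 ± 0.16, Cox7a1, another muscle form, was at -0.27 ± 0.38, and Cox4i2 at -0.06 ± 0.12. Cox6b2, a testis form, differed by -0.41 ± 0.19 (limma adjusted p = 0.721).

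In complex V, none of the F1 subunits, which form the catalytic head, passed between zones. Atp5a1 was at -0.21 ± 0.18, Atp5b, the catalytic beta subunit, at -0.09 ± 0.10, Atp5c1 at 0.00 ± 0.12, Atp5d at -0.11 ± 0.34 and Atp5e at -0.08 ± 0.10 (SE; limma adjusted p 0.999 for each). With the matched set as a block the SE was 0.10 for Atp5a1 and 0.18 for Atp5d, and neither passed. The 3 genes for the proton-carrying c ring, Atp5g1, Atp5g2 and Atp5g3, were at -0.06 ± 0.33, -0.08 ± 0.18 and -0.07 ± 0.10. Atpif1, the inhibitor of the enzyme's reverse action, is no member by its symbol and was at -0.21 ± 0.11 (limma adjusted p = 0.821).

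Zone differences within each affinity were of like size. At high affinity 69 of 80 members were lower in the LZ, with a median of -0.14 (-0.13, -0.09 and -0.16 in sets 1 to 3), and at low affinity 73 of 80, with a median of -0.15 (-0.25, 0.00 and -0.21). In each of these comparisons 0 members passed, against 4 genes (0.0357%) at high affinity and 4 genes (0.0357%) at low affinity (limma, adjusted p below 0.05). At an unadjusted p below 0.05 the counts were 1 member against 508 genes (4.53%) and 2 members against 526 genes (4.69%), the genes in either direction.
The member at high affinity was Cox6b2, which was 6.63, 6.53 and 7.04 in DZ_high and 6.03, 6.11 and 5.88 in LZ_high. All 3 LZ_high arrays lay below all 3 DZ_high arrays, with a difference of -0.73 ± 0.27 (SE; limma adjusted p = 0.897). The LZ_low arrays, at 5.77, 6.45 and 6.91, covered both ranges.

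The comparison of affinities gave the opposite arrangement, with higher values at high affinity. In the LZ, 70 of 80 members (87.5%) were higher in high affinity cells, against 49.7% of all tested genes, with a median of 0.13 against 0.00. In the DZ, 69 of 80 (86.2%) were higher, against 50.4%, with a median of 0.11 against 0.00. No member passed in either zone, and no gene did: the share called was 0% in the LZ and 0% in the DZ (limma, adjusted p below 0.05). At an unadjusted p below 0.05, 4 members were higher in the LZ against 466 genes (4.16%) in either direction, and 0 members in the DZ against 247 genes (2.2%). With the matched set as a block these counts were 8 members in the LZ against 891 genes (7.95%) and 3 in the DZ against 597 genes (5.33%), all higher at high affinity. Over both directions the share of members was thus near the background in the LZ and below it in the DZ. Higher at high affinity were 196 genes in the LZ and 105 in the DZ, and 402 and 209 with the block. Against these, the share of members was above the background except in the DZ without the block. By adjusted p the block called 0 members and 0% of genes in either zone.
Markers of other cell types lay lower at high affinity in the LZ: 3 of 4 macrophage markers (median -0.38), 3 of 3 T cell markers (median -0.43) and 5 of 6 granulocyte markers (median -0.73), none of them called. In sets 1 to 3 the medians were -0.08, -0.10 and -0.73 for macrophage, -0.10, -0.15 and -0.32 for T cell and -0.19, 0.05 and -1.91 for granulocyte markers. All 7 germinal centre B cell markers were also lower at high affinity in the LZ, none called, with a median of -0.18 (-0.20, -0.16 and -0.18 in sets 1 to 3). The mean level of the macrophage list was 4.96 to 5.42 in LZ_high and 4.96 to 5.80 in LZ_low, that of the T cell list 4.86 to 5.39 and 5.01 to 6.67, and that of the granulocyte list 5.28 to 6.83 and 5.41 to 6.77. Without the LZ_low array of set 3, which had the highest mean level of the T cell list, the member median for affinity in the LZ was 0.18, and without the whole of set 3 it was 0.14. The part of other cell types in the LZ values of the members was not tested. In the DZ all 6 granulocyte markers were higher at high affinity, with a median of 0.37 (0.10, 0.88 and 0.60 in sets 1 to 3) and a mean level of 5.34 to 7.01 in DZ_high and 5.44 to 6.41 in DZ_low, and their part in the DZ values was not tested.

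By complex, the median affinity difference in the LZ was 0.17 for complex I, 0.22 for complex II, 0.29 for complex III, 0.05 for complex IV and 0.12 for complex V. In the DZ it was 0.11, 0.10, 0.23, 0.05 and 0.09 in the same order. Complex III had the largest and complex IV the smallest median in both zones; differences between complexes were not tested. In the LZ the member median was 0.01, 0.25 and 0.16 in sets 1 to 3. In the DZ it was -0.07, 0.34 and 0.14, where all tested genes gave -0.13, 0.07 and 0.00, so set 1 did not have the direction of the other sets.

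**Figure D2:**
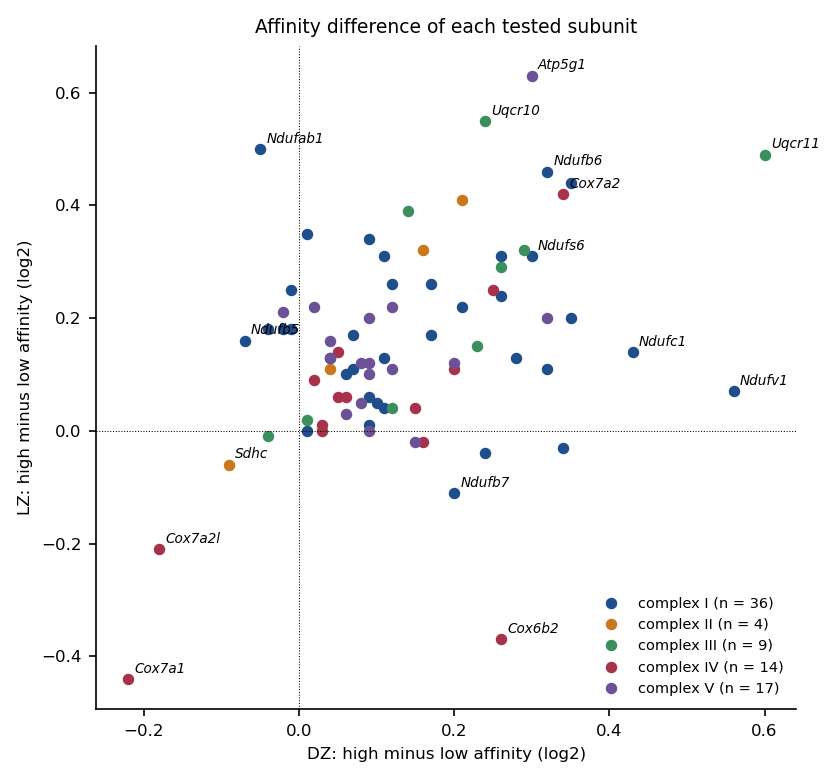
Log2 difference, high minus low affinity, of the 80 tested subunits in the dark zone (horizontal axis) and in the light zone (vertical axis), coloured by complex. Most points lie above 0 on both axes; Ndufab1, at 0.50 in the light zone and -0.05 in the dark zone, and Cox6b2, at -0.37 and 0.26, are on opposite sides of 0 in the 2 zones.

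Uqcr10, a small subunit of complex III, had the smallest p for affinity in the LZ. It was 10.30, 10.57 and 10.26 in LZ_high and 9.90, 9.79 and 9.79 in LZ_low, so that the groups did not overlap. The DZ arrays, at 10.26, 10.60 and 10.47 for high and 10.25, 10.04 and 10.32 for low affinity, were also all above LZ_low. The difference was 0.55 ± 0.15 in the LZ (SE; limma adjusted p = 0.999), a fold of 1.47, and 0.24 ± 0.15 in the DZ. It was the 1 member called under any alternative processing, at 0.70 with an adjusted p of 0.028 when limma weighted the arrays, in a fit whose weights stopped short of their convergence tolerance.
Ndufb6, an accessory subunit of complex I, was 10.79, 10.90 and 10.95 in LZ_high and 10.66, 10.42 and 10.18 in LZ_low. These did not overlap either, and the difference was 0.46 ± 0.17 in the LZ and 0.32 ± 0.17 in the DZ (SE; limma adjusted p = 0.999 and 1). Cox7a2 was at 0.42 ± 0.16 in the LZ and 0.34 ± 0.16 in the DZ. In the DZ the smallest p was that of Ndufc1, at 0.43 ± 0.20, and Ndufs6 was at 0.30 ± 0.16.
Several of the largest affinity differences also had large errors. These errors come from the fit without the matched set as a block, so they include differences between sets. For Atp5g1 the SE of the zone difference was 0.33 without the block and 0.14 with it. Atp5g1, one of the genes for the c ring, was at 0.63 ± 0.46 in the LZ, and Uqcr11, a small subunit of complex III, at 0.49 ± 0.36 in the LZ and 0.60 ± 0.36 in the DZ. Atp5g1 was 8.72, 8.81 and 9.95 in LZ_high and 8.51, 8.17 and 8.92 in LZ_low, so that LZ_high was the higher one in each set although the groups overlapped. Ndufv1 was at 0.56 ± 0.32 in the DZ, with 8.50, 8.86 and 9.83 in DZ_high and 8.70, 8.03 and 8.78 in DZ_low, and its direction was not shared by set 1.

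All 3 LZ_high values lay above all 3 LZ_low values in 13 of 80 members (16.2%), against 484 genes (4.32%). The 13 were Ndufab1, Ndufb6, Ndufs3, Ndufs6 and Ndufv2, Sdha, Uqcr10, Cox6c and Cox7a2, and Atp5g3, Atp5j, Atp5k and Atp5pb. In the DZ the same order was seen in 2 members (2.5%), Cox7a2 and Uqcrq, against 369 genes (3.29%), a share near the background. Over the 6 matched pairs of both zones, high affinity was the higher one in all 6 for 7 members (8.75%), against 257 genes (2.29%): Ndufa12, Ndufb6, Ndufs3, Uqcr10, Uqcrq, Cox7a2 and Atp5g1. Cox7a2 and no other member met all of these orders and also had the lower LZ value in all 6 zone pairs.

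Few members went the other way. In the LZ those with the smallest p were Cox6b2 at -0.37 ± 0.27, Cox7a2l at -0.21 ± 0.17, Cox7a1 at -0.44 ± 0.54 and Ndufb7 at -0.11 ± 0.16, and in the DZ Cox7a2l at -0.18 ± 0.17, Sdhc at -0.09 ± 0.17, Cox7a1 at -0.22 ± 0.54 and Ndufb5 at -0.07 ± 0.16. Cox7a2l and Cox7a1 were on this side in both zones, but Cox7a1 rested on set 3, where the LZ difference was -1.68 against 0.00 and 0.35 in sets 1 and 2. No member of this group passed the test.

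The interaction, which is the affinity difference in the LZ minus that in the DZ, passed for 0 members and 0% of genes (limma, adjusted p below 0.05). At an unadjusted p below 0.05 it was 0 members against 177 genes (1.58%), and with the matched set as a block it was 1 member against 408 genes (3.64%). The member median was 0.02, and 0.15, -0.08 and 0.07 in sets 1 to 3. The smallest p was that of Ndufab1, which was 8.51, 8.92 and 8.80 in DZ_high, 8.58, 8.65 and 9.14 in DZ_low, 8.99, 9.02 and 9.45 in LZ_high and 8.57, 8.45 and 8.93 in LZ_low. Its LZ_high arrays held 3 of the 4 highest values, the other being a DZ_low array, and the interaction was 0.55 ± 0.30 (SE; limma adjusted p = 1). Next were Cox6b2 at -0.63 ± 0.39, Uqcr10 at 0.31 ± 0.21 and Ndufv2 at 0.34 ± 0.24.

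**Figure D3:**
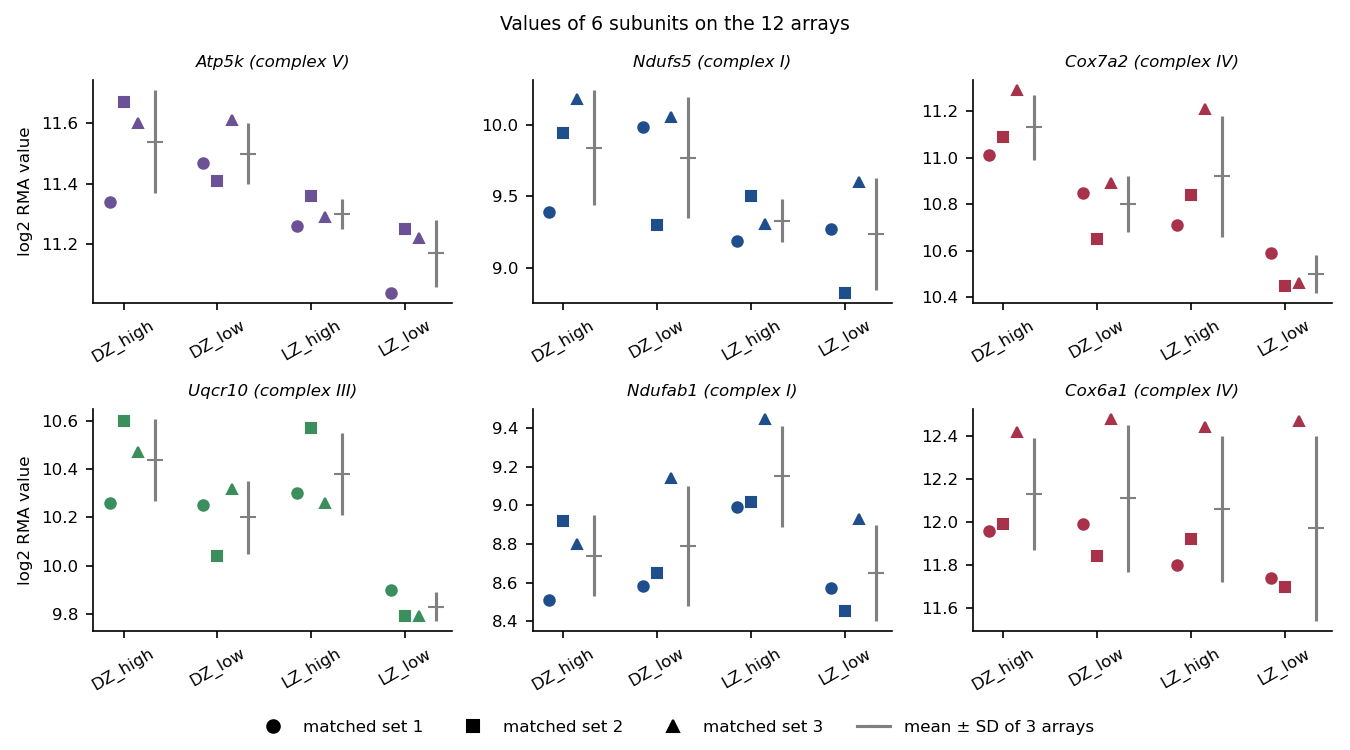
Log2 RMA values of 6 subunits on the 12 arrays by group; symbols mark the matched set, and grey bars give the mean ± SD of 3 arrays. Uqcr10 is lowest on the 3 LZ_low arrays, and Cox6a1 is higher on the 4 arrays of set 3 than on the other 8.

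Taken over all members, the 12 arrays ordered by group with overlap. Each member was set to its own mean over the 12 arrays, and the median over the 80 was -0.03, 0.15 and 0.24 on the DZ_high arrays, 0.08, -0.17 and 0.12 on the DZ_low arrays, -0.09, 0.05 and 0.05 on the LZ_high arrays and -0.15, -0.18 and -0.05 on the LZ_low arrays. The group means were 0.12 ± 0.14, 0.01 ± 0.16, 0.01 ± 0.08 and -0.13 ± 0.07 (SD, n = 3). DZ_high was thus highest and LZ_low lowest, and DZ_low and LZ_high had the same mean. The zone and affinity comparisons share arrays, so the low LZ_low values enter both of them. The DZ_low array of set 2, at -0.17, lay with the LZ_low arrays.

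**Figure D4:**
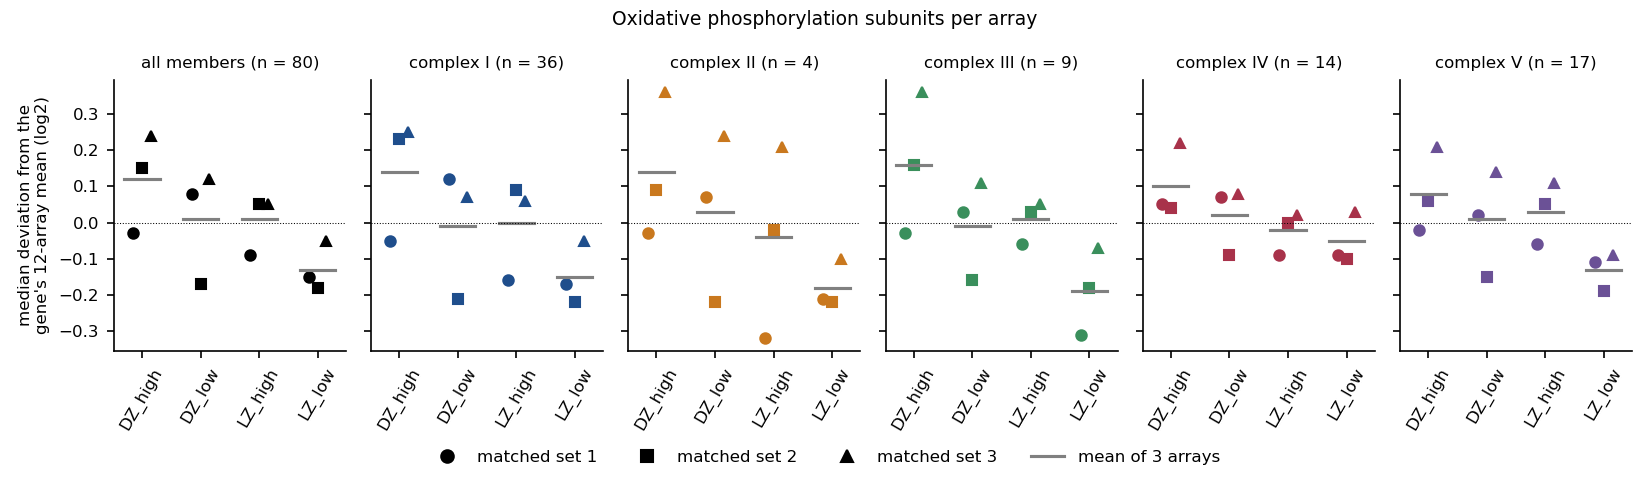
Median deviation of the tested subunits from each gene's mean over 12 arrays (log2), per array, for all 80 members and for each complex; symbols mark the matched set and grey lines the mean of a group's 3 arrays. The group mean is highest in DZ_high, at 0.12, and lowest in LZ_low, at -0.13, and the ranges of neighbouring groups overlap.

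Some members followed the matched set more than the sort. In 11 of 80 (13.8%) the 4 values of set 3 were all above the other 8, against 663 genes (5.92%), and in 0 were they all below, against 565 genes (5.04%). The 11 were Atp5a1, Atp5c1, Atp5d, Atp5g1, Atp5g2, Atp5o, Cox4i2, Cox6a1, Cox8a, Ndufc2 and Uqcrc1, of which 6 belong to complex V. Cox6a1 was 12.42, 12.48, 12.44 and 12.47 on the arrays of set 3 and between 11.70 and 11.99 on the others, a gap larger than any difference between its groups. Atp5d was between 10.17 and 10.54 in set 3 and between 8.84 and 9.76 elsewhere. For these genes the spread within a group was mostly a difference between sets, and what the shared suffix stands for was not given in the sources used here.

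Members with several probe sets allowed these to be compared. Probe sets of a gene read the same RNA on the same arrays, so a shared sign is no separate evidence of a difference between groups. Of 17 such genes, all 17 had the same sign of the LZ minus DZ difference on every probe set. For affinity in the LZ the sign was shared in 13 of 17, with Atp5l, Cox5b, Ndufb11 and Uqcrb the exceptions, and in the DZ in 15 of 17, with Atp5pb and Uqcrb the exceptions. On the probe set used, the LZ difference was 0.00 for Atp5l, Cox5b and Ndufb11 and 0.02 for Uqcrb. In the DZ it was -0.02 for Atp5pb and 0.01 for Uqcrb. The sign of these exceptions therefore carries little.

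Other genes of mitochondrial metabolism were read from lists of the same fit, and in each list 0 genes passed between zones, or between affinities in either zone (limma, adjusted p below 0.05). The mitochondrial ribosome, which translates the subunits of mitochondrial DNA, lay on the same side as the members: of 77 tested genes 54 were lower in the LZ with a median of -0.12, and 66 were higher at high affinity in the LZ with a median of 0.16. At an unadjusted p below 0.05 the count between zones was 4 of 77, all lower in the LZ. For affinity in the LZ it was 10 of 77, all higher. Over all tested genes the shares in either direction were 7.06% and 4.16%. Its largest zone differences by p were Mrpl38 at -0.47 ± 0.18 and Mrps14 at -0.32 ± 0.13 on the lower side, and Mrpl52 at 0.39 ± 0.19 and Mrpl13 at 0.33 ± 0.25 on the higher.
Enzymes of the citric acid cycle and pyruvate dehydrogenase, which supply the electrons, were lower in the LZ in 16 of 17, with a median of -0.12. Idh2, the NADP-dependent isocitrate dehydrogenase, was at -0.58 ± 0.16 (SE; limma adjusted p = 0.231) and Fh1, fumarase, at -0.40 ± 0.12 (adjusted p = 0.271), neither past the threshold. By affinity in the LZ this list had a median of -0.04, with 6 of 17 higher.

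Of the assembly factors, which build the complexes and stay out of them, 26 of 45 were lower in the LZ, with a median of -0.04; the difference from the subunits was not tested. The carriers and exchangers around the chain had a median of -0.01 over 16 genes, with Coq3 at 0.62 ± 0.25 and Coq2 at -0.45 ± 0.27, both enzymes of ubiquinone synthesis, and Cycs, cytochrome c, at -0.18 ± 0.11. The regulators of mitochondrial biogenesis had a median of -0.02 over 16 genes. Myc, a general growth regulator, was at 0.71 ± 0.26 (SE; limma adjusted p = 0.501) and Ppargc1b, a coactivator, at 0.27 ± 0.13, on the opposite side from most subunits, while Nrf1 was at -0.21 ± 0.16 and Tfb2m at -0.22 ± 0.24. The 2 subunits of mitochondrial DNA that could be read, COX2 and ND3, were at 0.07 ± 0.11 and 0.01 ± 0.11.

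**Figure D5:**
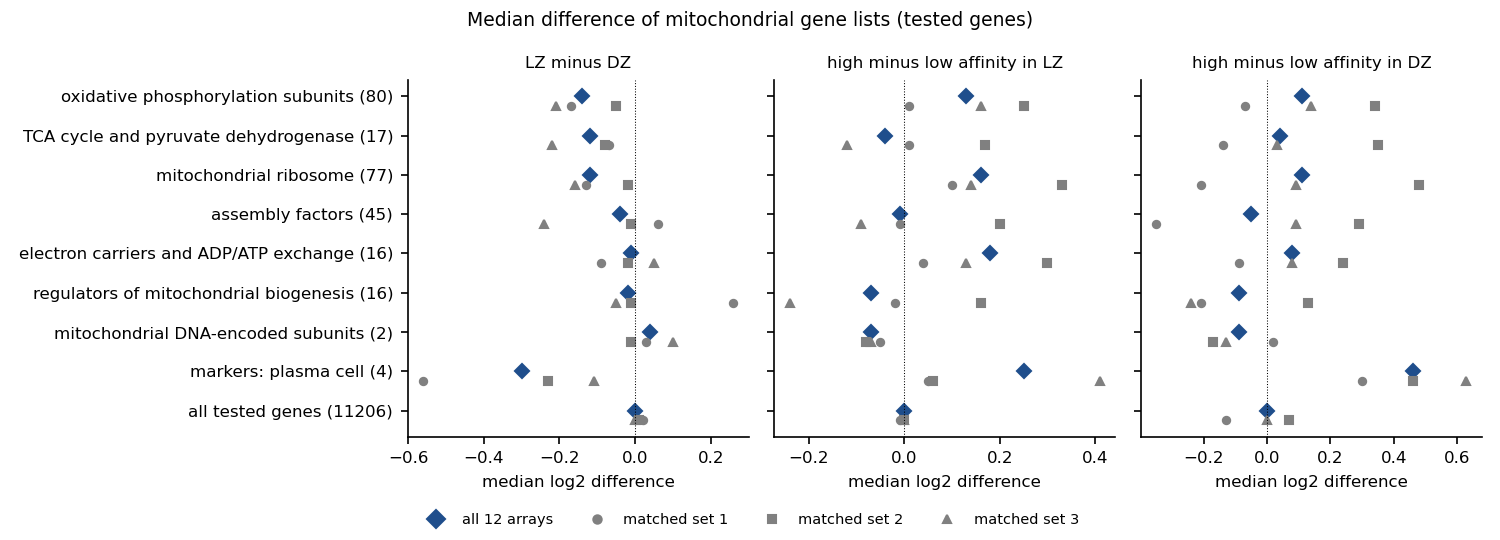
Median log2 difference of mitochondrial gene lists, of the plasma cell markers and of all tested genes, between zones and between affinities in each zone, with the number of tested genes in brackets; diamonds are the fit over 12 arrays and grey symbols the 3 matched sets. Subunits and mitochondrial ribosome lie on the same side of 0 in each panel, at -0.14 and -0.12 between zones, and the plasma cell markers lie on that side too, at -0.30.

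The median of the plasma cell markers lay on the same side as that of the members. Of 5 such genes with a probe set 4 were tested, with a median LZ minus DZ difference of -0.30 (-0.56, -0.23 and -0.11 in sets 1 to 3), and medians for affinity of 0.25 in the LZ and 0.46 in the DZ. The mean level of the list was 7.23 to 7.43 in DZ_high, 6.73 to 7.11 in DZ_low, 6.76 to 7.36 in LZ_high and 6.70 to 6.97 in LZ_low. Jchain, the joining chain of secreted antibody, passed as lower in the LZ (limma adjusted p = 0.0427), whereas Prdm1, the factor that defines the lineage, was below the median on all arrays, and Sdc1 was at or above it on 4. Irf4, a factor also used by light zone B cells, lay on the other side between zones, at 5.92, 6.40 and 6.33 in DZ_high and 7.05, 6.44 and 7.30 in LZ_high, a difference of 0.74 over both affinities that was not called. The part of plasma cell genes in the differences of the subunits was not tested.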

How the data were processed

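The authors deposited log2 expression values per probe set, 1 column per array. The submitters' processing notes name RMA and the build mm8. The log base was read from the values, and no scanner files or detection calls were used, so signal over background could not be given. RNA was amplified before labelling, per the labels' protocols. Of 28853 probe sets, 21789 had 1 gene symbol, 1621 several and 5443 none, and only the first kind was used. A gene was its probe set with the highest mean over 12 arrays.

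Group means were fitted with limma 3.58.1 in R 4.3.3 (lmFit, eBayes, two-sided) over all 4 groups and 11206 genes, and the code was tested on simulated data. P-values were adjusted over all tested genes, with a threshold of 0.05. Means of 3 arrays limit the precision. Named members were those called, up to 4 of smallest p per direction and contrast, and fixed core subunits and isoforms; other lists gave 2 per direction. Genes picked by order rules, and those following matched set 3, were chosen after their values were seen. So was Uqcr11, which was given for the size of its affinity difference. Members and lists were chosen with earlier results of these data known.

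Matched sets come from a suffix shared by the sample descriptions. With group means removed, 17 of 18 same-set pairs of arrays correlated above 0.1 across genes, with a median of 0.406 and a lowest value of -0.0712, and for 11 of 12 arrays the closest other array was one of the same set. The set as a block was an alternative, as were other filters, scalings and weights, a probe set mean, and left-out arrays. Promoters and symbols are from RefSeq (GRCm38.p6); all 83 members matched by gene ID.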

Additional observations from a re-analysis of the deposited data

Results flagged for a closer look

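Ndufab1 stood out because its zone difference had opposite signs at the 2 affinities in every matched set. At high affinity LZ minus DZ was 0.48, 0.10 and 0.66 in sets 1 to 3, and at low affinity it was -0.01, -0.20 and -0.21. The test of the difference itself, the interaction, gave 0.55 ± 0.30 with a limma adjusted p of 1, and 1 with the matched set as a block. One of the low-affinity values, -0.01, is close to 0.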

How the results depend on the processing

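No member was called between zones, between affinities in the DZ or in the interaction under any alternative run. In the LZ, array weights called 1 member by affinity, Uqcr10, at 0.70; the weights stopped short of their convergence tolerance. The median of the members kept its sign between zones and between affinities in both zones under every alternative: it ran from -0.19 to -0.10 for LZ minus DZ, from 0.10 to 0.20 for affinity in the LZ and from 0.02 to 0.18 for affinity in the DZ. At high affinity the zone median was -0.08 with array weights, and between -0.17 and -0.08 with 1 array left out. The median of the interaction ran from -0.05 to 0.10. The replicate block, with matched set in the model, changed no call of a member (0 in each contrast) and gave 135 genes in place of 47 between zones, 9 in place of 4 at high affinity and 25 in place of 4 at low affinity. Genes called between zones were 327 with array weights, 80 after quantile normalization, 28 after median centring, 87 without matched set 3 and 12 to 67 with 1 array left out. With array weights they were 146 at high affinity, 40 at low affinity and 103 for affinity in the LZ. Without each array in turn they were 2 to 5 at high affinity and 0 to 5 at low affinity, and 0 to 1 for affinity in the DZ; quantile normalization gave 7 at low affinity, and fits of only the groups compared gave 0 at either affinity.

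The following differences, none of them called, changed sign, and the cause was not tested. With array weights LZ minus DZ was -0.02 for Ndufa5, -0.02 for Atp5c1 and 0.02 for Ndufs3, the affinity difference in the LZ was 0.35 for Cox7a1 and 0.03 for Ndufb7, that in the DZ was 0.04 for Cox7a1, and the interaction of Ndufv1 was 0.02. Without matched set 3, LZ minus DZ was -0.06 for Ndufa5, -0.02 for Atp5c1, 0.06 for Ndufs1, 0.01 for Ndufs3 and 0.05 for Atp5g1. Without that set the affinity difference was 0.17 for Cox7a1 in the LZ, and 0.15 for Cox7a1, 0.11 for Sdhc and 0.03 for Ndufb5 in the DZ. Ndufa4l2 was at 0.00 between zones after quantile normalization. Leaving out 1 array at a time, LZ minus DZ ran from -0.07 to 0.05 for Atp5c1, -0.32 to 0.10 for Atp5d, -0.26 to 0.16 for Atp5g1, -0.17 to 0.04 for Atp5g2, 0.00 to 0.23 for Cox6a2, -0.53 to 0.04 for Cox7a1, -0.09 to 0.03 for Ndufa4l2, -0.06 to 0.10 for Ndufa5, -0.07 to 0.03 for Ndufs3 and -0.33 to 0.02 for Sdhd. The affinity difference ran from -0.88 to 0.17 for Cox7a1 in the LZ, and in the DZ from -0.62 to 0.30 for Cox7a1, -0.21 to 0.05 for Ndufb5 and -0.24 to 0.09 for Sdhc. Fits of only the groups compared apply to contrasts of 2 groups.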
